A study of Mus musculus with 7 samples.

Results

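The 40 genes described here code for proteins of autophagy and of the lysosome. They were taken by gene name from a fixed list of autophagy machinery, cargo receptors, transcription factors and lysosomal proteins, and all 40 were found among the 25469 genes of the series table. Their values come from 7 RNA-sequencing libraries of regulatory T cells (Tregs), taken from the spleen as CD4+CD25+ cells by magnetic bead sorting, of which 3 were made from 18-month-old (aged) and 4 from young animals. The young mice were 8 weeks old according to the sample labels, whereas the methods of the study describe 10-week-old animals. All mice were wild type, and male C57BL/6 according to the methods, and no group carried a transgene, a deletion or a treatment. The labels call the libraries biological replicates, without saying whether a library came from a single animal, so the p-values measure the spread between these libraries.

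In autophagy, a double membrane grows around cytoplasm, damaged organelles or protein aggregates, closes to an autophagosome and fuses with a lysosome, where hydrolases degrade the content. A kinase complex with ULK1 or ULK2 starts the process, a class III phosphatidylinositol 3-kinase marks the membrane with PI3P, and a set of conjugation enzymes attaches ubiquitin-like proteins of the Atg8 family to the lipid, where cargo receptors bind them. TFEB and TFE3 are transcription factors that bind E-box elements in many lysosomal and autophagy genes when mTORC1 activity at the lysosome is low. In Tregs, autophagy genes such as Atg5 and Atg7 are known to be needed for lineage stability and survival.

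Compared with young Tregs, aged Tregs had lower levels of Tfeb, which codes for the transcription factor that switches on lysosomal genes, and of Ulk2, which codes for an initiating kinase. None of the 40 genes was called higher in aged Tregs, and 38 of 40 did not pass the test in either direction. Calls of DEGs rest on edgeR's quasi-likelihood test, with p-values adjusted over all 13904 genes tested and a threshold of 0.05. Of all genes tested, 9.8% were called higher and 6.94% lower in aged Tregs, against 0 and 2 of the 40. At an unadjusted p-value under 0.05, 2 of the 40 were higher (Atg4b and Lamp2) and 2 lower (Tfeb and Ulk2), against 17.6% and 15.1% of all genes tested. DESeq2 called 1 of the 40 higher, namely Atg4b, and the same 2 lower, against 14.3% and 13.1% of all genes, while limma voom called 0 higher and 2 lower, against 9.39% and 7.03%. The log2 fold change, aged over young, was positive for 25 of the 40 and negative for 15, with a median of 0.08 beside a median of 0.02 over all genes tested. This median was -0.07 without aged replicate 2 and 0.17 without aged replicate 1, and it was -0.0012 when only library size was used for scaling. The sizes were modest, as the median of the absolute log2 fold change was 0.15 for the 40 genes and 0.27 for all genes.

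**Figure D1:**
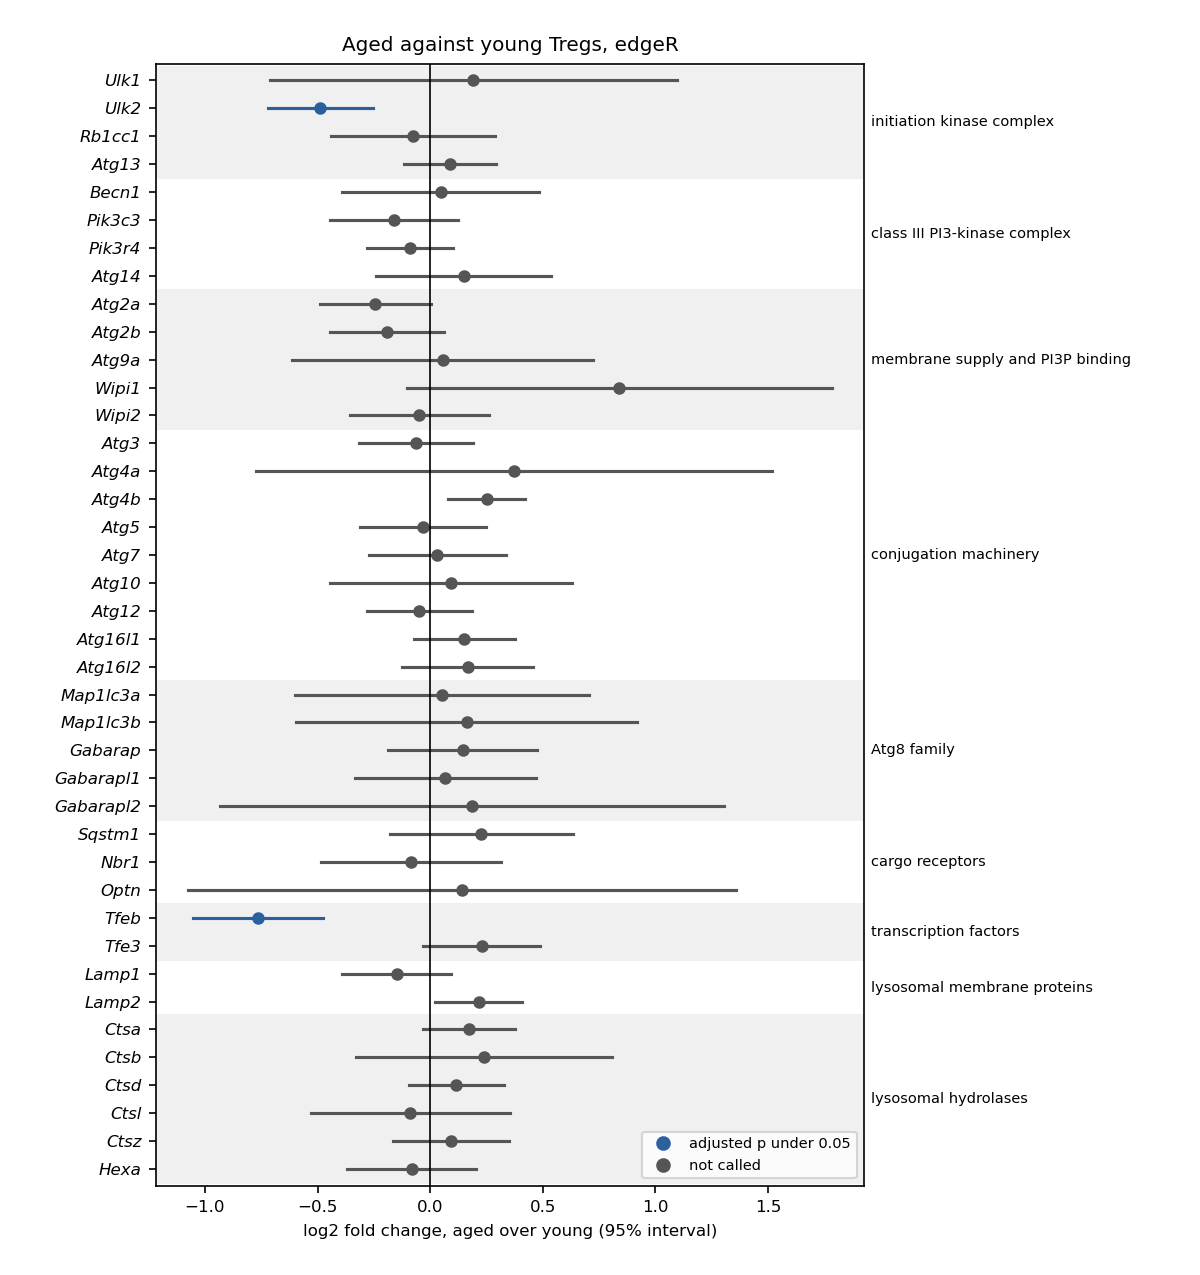
Log2 fold change of each of the 40 genes, aged over young Tregs, with the 95% interval of the edgeR fit (horizontal axis, log2), ordered by role in the pathway (vertical axis). The intervals of Tfeb and Ulk2 (blue) lie wholly below 0 and pass the adjusted threshold. Those of Atg4b and Lamp2 lie above 0 but do not pass it.

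The libraries held 10734234 to 13649310 reads counted on genes, and every aged library was shallower than every young library. The 40 genes took 0.333% to 0.428% of these reads. A count of 3, used as the limit of detection, was worth 0.22 to 0.279 CPM (read counts scaled to library size) before TMM scaling. On the TMM scale, used for all other CPM values here, a count of 3 was worth 0.21 CPM in young replicate 2. In aged replicate 2 it was worth 0.302 CPM on that scale. Foxp3, Il2ra and Cd4, which define Tregs, were well detected in every library, with Foxp3 at 447.0 to 621.8 CPM in aged and 393.8 to 518.3 CPM in young Tregs. Il2ra was at 327.1 to 480.7 against 471.0 to 684.0 CPM (log2 fold change -0.61, adjusted p = 0.0588 in edgeR) and Cd4 at 434.1 to 446.3 against 493.4 to 633.0 CPM (-0.3, adjusted p = 0.117), so that every aged library was below every young one in Cd4. Of the 8 Treg and T cell markers, Cd3e was called higher (0.46) and the others were not called, among them Ctla4 at 0.86 (adjusted p = 0.103). At an unadjusted p-value under 0.05 in edgeR, 4 of the 8 were higher (Ctla4, Ikzf2, Tnfrsf18 and Cd3e) and 2 lower (Il2ra and Cd4). Of all genes tested, 17.6% and 15.1% were higher and lower at that level. The part of these differences in the levels of Tfeb and Ulk2 was not tested. Libraries also carried transcripts of other cells. Haemoglobin genes took 1.24% to 13.1% of the reads, and aged replicate 1 and young replicate 2 stood apart with 1.27% and 1.24%. Mitochondrial genes took 5.08% to 10.7% of the reads in aged and 2.63% to 3.23% in young libraries. The summed level of 8 neutrophil markers was 721.8 to 5331 CPM in aged and 267.8 to 947.2 CPM in young libraries. By edgeR, 4 of the 8 were called higher, and all 8 were higher at an unadjusted p-value under 0.05. In bulk samples, fewer cells of a type and less RNA per cell cannot be told apart.

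Among the transcription factors, Tfeb (chr17:47737030-47792419, plus strand, GRCm38) held 23.1, 23.3 and 23.5 CPM in the aged libraries and 38.8, 40.7, 32.8 and 45.7 CPM in the young libraries, each in the order of the replicate numbers, as below. The aged libraries lay close together, and all of them were below every young library, a separation in this direction that 14.4% of all genes tested showed. The mean was 23.3 ± 0.21 CPM in aged (SD, n = 3) and 39.5 ± 5.35 CPM in young Tregs (SD, n = 4). The log2 fold change was -0.76 with a standard error of 0.127 and an edgeR adjusted p-value of 0.00642, so that the level in young Tregs was 1.7-fold that in aged Tregs. The call was also made with each library left out in turn, with a log2 fold change of -0.84 to -0.69 and an adjusted p-value of 0.00844 to 0.0286. It was made with mitochondrial, immunoglobulin and haemoglobin genes left out as well, at -0.76 and an adjusted p-value of 0.0053.

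Tfe3, the closest relative of Tfeb on this list and a factor that binds the same element, did not pass the test. Its aged libraries held 41.7, 52.4 and 51.2 CPM and its young libraries 44.2, 42.6, 36.6 and 41.8 CPM, so that aged replicate 1 lay among the young values. The log2 fold change was 0.23, with a 95% interval of -0.03 to 0.49 and an adjusted p-value of 0.203. Per kilobase of exon, the mean level of Tfeb was 4.11 ± 0.037 CPM per kb in aged (SD, n = 3) and 6.97 ± 0.944 CPM per kb in young Tregs (SD, n = 4). Tfe3 was at 5.23 ± 0.633 and 4.46 ± 0.353 CPM per kb, so that per kb Tfeb had the lower mean of the pair in aged and the higher in young Tregs. The order in young Tregs depends on the exon lengths, 5669 bp for Tfeb and 9261 bp for Tfe3. In CPM without length, the mean of Tfe3 was the higher at both ages, at 48.4 against 23.3 CPM in aged and 41.3 against 39.5 CPM in young Tregs.

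In the initiation kinase complex, Ulk2 (chr11:61775649-61855073, minus strand) was at 40.5, 32.6 and 36.7 CPM in the aged and at 50.6, 54.7, 52.0 and 48.2 CPM in the young libraries. Every aged value was below every young value. The mean was 36.6 ± 3.96 CPM in aged (SD, n = 3) and 51.4 ± 2.68 CPM in young Tregs (SD, n = 4), with a log2 fold change of -0.49, a standard error of 0.102 and an adjusted p-value of 0.0158. Leaving out each library in turn gave -0.57 to -0.41, with an adjusted p-value of 0.00896 to 0.049, the latter close to the threshold.

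**Figure D2:**
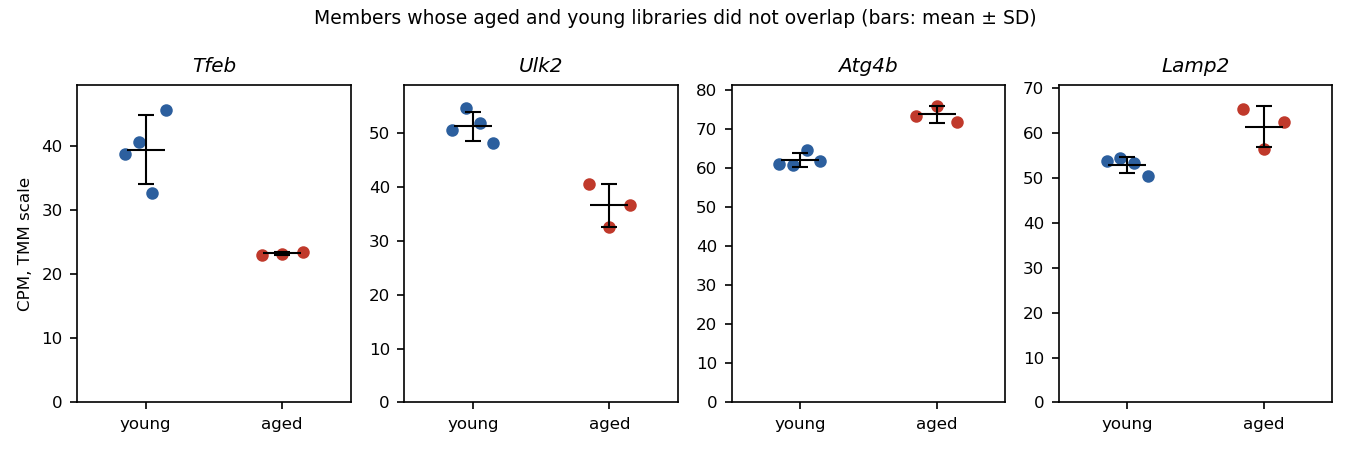
CPM (vertical axis, from 0) in each young (blue, n = 4) and aged (red, n = 3) library for the 4 genes whose ages did not overlap, with mean and SD as bars. Tfeb and Ulk2 (2 of the 40, against 14.4% of all genes tested) were lower in all aged libraries, and Atg4b and Lamp2 (2 of the 40, against 15.5%) were higher in all aged libraries.

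Ulk1, the paralogue of Ulk2 and the better known initiating kinase, showed another picture. It was at 51.0, 119.0 and 94.6 CPM in the aged and at 117.5, 34.9, 71.8 and 84.9 CPM in the young libraries, a range of 3.41-fold that ran across both ages. The fitted log2 fold change of 0.19 had a 95% interval of -0.71 to 1.09. Thus, a difference of up to about that size in either direction cannot be told from the spread between libraries. Of the scaffold proteins of the complex, Rb1cc1 (which codes for FIP200) had a log2 fold change of -0.08 (adjusted p = 0.784 in edgeR) and Atg13 of 0.09 (adjusted p = 0.535 in edgeR). Atg13 varied little, between 52.4 and 63.5 CPM over the 7 libraries.

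No gene of the class III phosphatidylinositol 3-kinase complex passed the test, and the ages overlapped in all 4. Log2 fold changes were 0.05 for Becn1, the Beclin 1 subunit, -0.16 for Pik3c3, the catalytic subunit VPS34, -0.09 for Pik3r4, the regulatory subunit VPS15, and 0.15 for Atg14, the subunit that directs the complex to autophagy. The edgeR adjusted p-values lay between 0.409 and 0.898. Pik3r4 was among the steadiest of the 40, at 59.2 to 60.5 CPM in aged and 60.1 to 68.6 CPM in young Tregs, with a 95% interval of -0.28 to 0.1. Becn1 shares 43.9% of its exon length with the neighbouring gene Cntd1. Counting in union mode without strand assigns reads of such a shared part to neither gene.

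The genes that supply membrane to the growing autophagosome or read its PI3P did not pass the test either, 0 of 5 in each direction. Wipi1, a PI3P effector, had the largest fitted log2 fold change of the 40, at 0.84 with a standard error of 0.413. It was at 11.6, 20.9 and 8.52 CPM in aged and at 8.56, 3.15, 9.56 and 9.32 CPM in young libraries. The ages overlapped, the adjusted p-value was 0.198, and the log2 fold change was 0.4 without aged replicate 2 and 0.58 without young replicate 2. Its paralogue Wipi2 was at a log2 fold change of -0.05.

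Atg2a and Atg2b, which code for lipid transfer proteins, were at -0.24 and -0.19. Atg2a came nearest to a call in this group, with an adjusted p-value of 0.158 and a 95% interval that ended at 0. Its values were 81.5, 86.0 and 81.7 CPM in aged and 108.8, 86.0, 91.3 and 107.2 CPM in young Tregs. The highest aged value was just above the lowest young value. Atg9a, the scramblase of the membrane vesicles, had a log2 fold change of 0.06 and shares 32.6% of its exon length with other genes.

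Of the 9 genes of the conjugation machinery, none passed the adjusted threshold and 1 had non-overlapping ages. This was Atg4b, which codes for the protease that prepares Atg8 proteins for conjugation and later releases them. Atg4b was at 73.3, 75.9 and 71.8 CPM in the aged and at 61.0, 60.6, 64.5 and 61.6 CPM in the young libraries. All aged values were above all young values, as they were for 15.5% of all genes tested. The log2 fold change was 0.25 with a standard error of 0.0753, and the edgeR adjusted p-value of 0.0542 was just past the threshold. Over the alternatives, its adjusted p-value lay between 0.0135 and 0.302, and 4 of 18 called it.

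Atg4a, the paralogue of Atg4b on the X chromosome, spread 4.97-fold over the libraries. It was at 33.9, 157.2 and 72.7 CPM in aged and at 96.0, 31.6, 65.3 and 79.1 CPM in young Tregs. Aged libraries held both the highest and the second lowest value, and the log2 fold change of 0.37 had an interval of -0.77 to 1.52. 

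The remaining conjugation genes lay close to 0. The E1-like enzyme Atg7 had a log2 fold change of 0.03, the E2-like enzymes Atg3 and Atg10 of -0.06 and 0.09, and the ubiquitin-like Atg12 and its partner Atg5 of -0.05 and -0.03. The scaffold Atg16l1 and its paralogue Atg16l2 were at 0.15 and 0.17. The 95% interval was -0.31 to 0.25 for Atg5 and -0.27 to 0.34 for Atg7, the genes whose loss is known to destabilise Tregs. Atg10 was the least abundant of the group per length, with a median of 3.41 CPM per kb.

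The 5 genes of the Atg8 family had log2 fold changes between 0.05 and 0.19 with all libraries, and none passed the test. In 4 of them the sign depended on the libraries kept, since leaving out 1 library at a time gave values down to -0.53 for Gabarapl2, -0.31 for Map1lc3b, -0.15 for Gabarapl1 and -0.12 for Map1lc3a. Gabarap was the most abundant per length, with a median of 109.3 CPM per kb, followed by Gabarapl2 at 53.2, Map1lc3b (LC3B) at 30.1, Gabarapl1 at 8.64 and Map1lc3a (LC3A) at 3.63 CPM per kb. The ranges over the 7 libraries of Gabarapl2 (20.4 to 108.3 CPM per kb) and Map1lc3b (18.0 to 53.0 CPM per kb) overlapped, as did those of Gabarap (93.5 to 138.4 CPM per kb) and Gabarapl2. Within each library, however, the order of the 5 genes per length was the same in 7 of 7, and Gabarapl2 was 1.14-fold to 2.04-fold above Map1lc3b. That order depends on the exon lengths, 2325 bp for Gabarapl2 and 7517 bp for Map1lc3b, which are the same for every library and were not tested. In CPM without length, Map1lc3b was above Gabarapl2 in every library. Gabarap was at 172.4, 255.2 and 246.0 CPM in aged and at 191.5, 221.5, 201.5 and 198.0 CPM in young libraries. Aged replicate 1 was below all young libraries, and the other aged libraries were above them. With the 2 libraries lowest in erythroid transcripts left out, aged replicate 1 and young replicate 2, Gabarap was called higher, at 0.34 with an adjusted p-value of 0.0326, against 0.14 and 0.535 with all libraries, where 12.6% of all genes tested in that fit were called higher. With 1 library left out at a time, Gabarap was called in 0 of 7 fits, at 0.04 without aged replicate 2 to 0.3 without aged replicate 1, and with adjusted p-values of 0.069 to 0.88.

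Gabarapl2 and Map1lc3b varied the most of the family among the aged libraries. Gabarapl2 was at 47.5, 251.9 and 123.6 CPM in aged and at 167.1, 70.7, 138.4 and 119.0 CPM in young Tregs, and Map1lc3b at 135.0, 398.5 and 231.3 CPM in aged and at 295.0, 170.1, 226.3 and 219.4 CPM in young Tregs. In both genes, aged replicate 2 was the highest of all libraries and aged replicate 1 the lowest. For Gabarapl2 the sign of the log2 fold change depended on the libraries kept, from -0.53 without aged replicate 2 to 0.6 without aged replicate 1.

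**Figure D3:**
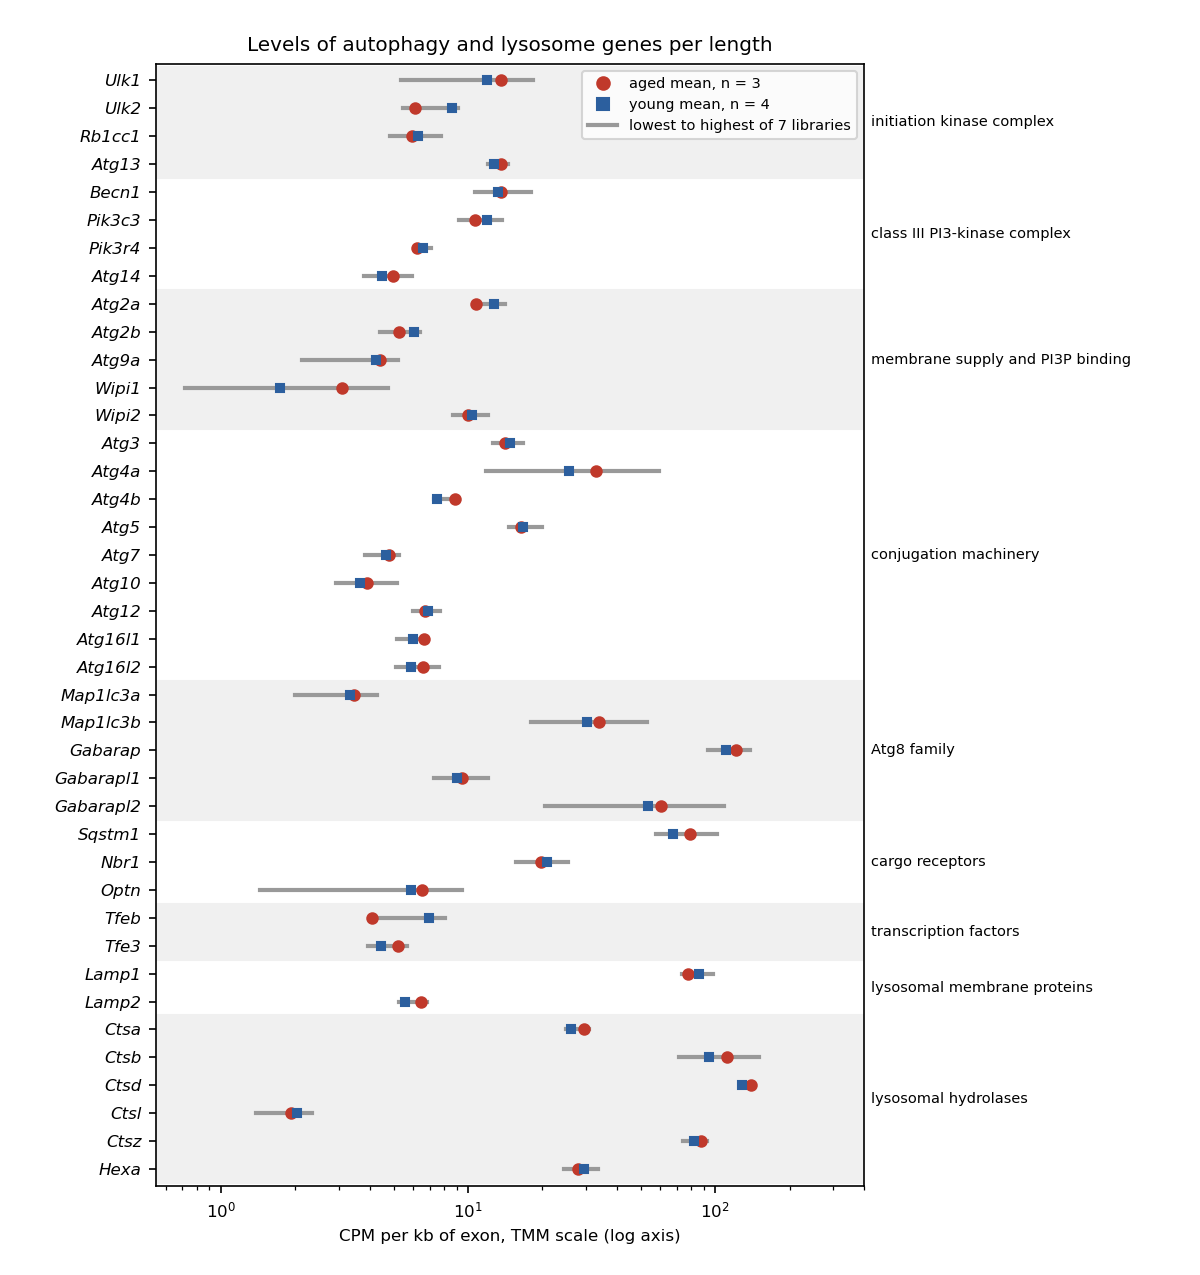
Level of each gene in CPM per kb of exon on the TMM scale (horizontal log axis), with the mean of 3 aged (red circle) and 4 young (blue square) libraries and the range over all 7 (grey line). Ctsd, Gabarap and Ctsb were the most abundant, and Ctsl and Wipi1 had the lowest medians. The grey lines of Optn, Wipi1, Gabarapl2 and Atg4a are the longest.

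The 3 cargo receptors did not pass the test. Sqstm1 (p62), the receptor that carries ubiquitinated cargo and is itself degraded with it, was at 193.1, 342.0 and 262.5 CPM in aged and at 246.6, 223.8, 208.7 and 229.2 CPM in young Tregs. Aged replicate 1 was the lowest of all libraries, and the other aged libraries were above all young ones. Its log2 fold change was 0.23 with all libraries and 0.41 without aged replicate 1, with adjusted p-values of 0.42 and 0.065 in edgeR. Without aged replicate 2 it was 0.0035 (adjusted p = 0.991 in edgeR), so that the size rested on these libraries. Nbr1 was at -0.08 and Optn (optineurin) at 0.14, the latter with the largest standard error of the 40, at 0.533. Optn was at 13.5, 35.4 and 24.3 CPM in aged and at 31.5, 5.4, 22.7 and 28.8 CPM in young libraries.

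Of the lysosomal membrane proteins, Lamp2 (chrX:38401357-38456454, minus strand), which is needed for fusion of autophagosomes with lysosomes, was at 65.4, 56.4 and 62.5 CPM in aged and at 53.7, 54.5, 53.2 and 50.3 CPM in young Tregs. All aged values were above all young values. On the log2 scale Lamp2 was 0.21 higher, with a standard error of 0.0846, and the edgeR adjusted p-value of 0.118 did not pass the threshold. Lamp1, the other membrane protein and the more abundant per length (a median of 81.8 against 5.71 CPM per kb), was at 196.6, 218.7 and 207.6 CPM in aged and at 217.4, 263.0, 220.1 and 220.5 CPM in young libraries. The ages overlapped by a single library, and the log2 fold change was -0.15 (adjusted p = 0.37 in edgeR). With the trends of GC content and gene length removed from each library, Lamp2 was called higher at 0.25 with an adjusted p-value of 0.0452, which made it 1 of 2 of the 40 genes called higher under that setting, against 11% of all genes.

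None of the 6 lysosomal hydrolases passed the test. The aspartic protease Ctsd was the most abundant of the 40 per length, at a median of 130.2 CPM per kb, and also among the steadiest, at 306.2 to 339.8 CPM in aged and 297.2 to 309.9 CPM in young Tregs. The log2 fold change of 0.12 had a 95% interval of -0.09 to 0.33. The carboxypeptidase Ctsa was at 126.9, 142.3 and 146.0 CPM in aged and at 120.7, 129.8, 117.7 and 123.1 CPM in young Tregs, which overlapped only through young replicate 2. Its log2 fold change was 0.17 with an adjusted p-value of 0.222 in edgeR.

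The cysteine proteases Ctsb, Ctsz and Ctsl were at log2 fold changes of 0.24, 0.09 and -0.09, and Hexa, a lysosomal glycosidase, at -0.08. Ctsb had the widest spread of the hydrolases, at 430.2, 912.6 and 674.8 CPM in aged and 678.7, 441.8, 551.1 and 608.7 CPM in young libraries. Aged libraries held the lowest as well as the highest value. Ctsl and Wipi1 had the lowest medians of the 40 per length, at 2.03 and 2.11 CPM per kb, and their order is uncertain because Ctsl shares 26.9% of its exon length with another gene. Ctsd, Ctsl, Ctsa, Ctsb and Hexa share 12.8% to 34.4% of their exon length with other genes. The summed level of the 6 hydrolases was 1332 ± 271.9 CPM in aged (SD, n = 3) and 1185 ± 82.1 CPM in young Tregs (SD, n = 4), a difference within the spread of the aged libraries. Neutrophils are rich in lysosomal proteases, and the share of the neutrophil transcripts above in these values was not tested. Aged replicate 1, with the highest neutrophil sum (5331 CPM), had the lowest sum of the 6 hydrolases, at 1061 CPM. Aged replicate 2, with the second highest neutrophil sum (1920 CPM), had the highest hydrolase sum, at 1605 CPM. Young replicate 2, with the lowest neutrophil sum (267.8 CPM), had the second lowest hydrolase sum, at 1094 CPM.

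Because TFEB and TFE3 bind the E-box CACGTG, the promoters of the members were searched for it. RefSeq windows of 300 bases (250 before to 50 after a RefSeq start of the gene, GRCm38.p6) were matched by symbol for 33 of the 40 genes (39 windows, since some genes have more than 1 RefSeq start), not for Rb1cc1, Becn1, Pik3c3, Atg12, Atg16l1, Map1lc3a and Ctsb. CACGTG, a palindrome that reads the same on both strands, was found in at least 1 window of 8 of the 33 genes (24.2%) and of 8.09% of the 27025 genes with windows. Its flanked form TCACGTGA, which contains it, was found in 3 of the 33 (9.09%) and in 1.12% of all these genes. The 4 windows with more than 1 CACGTG belong to Lamp1, Ctsa, Ctsd and Atg3, and they are printed to show how the matches lie to each other. These genes were picked for display after their values were seen. Each stretch is given 5′ to 3′ on the strand of the gene, with the matches in capitals: Ctsa at chr2:164833746-164833798 (plus strand), Ctsd at chr7:142387905-142388077 (minus strand), Lamp1 at chr8:13159085-13159166 (plus strand) and Atg3 at chr16:45158720-45158778 (plus strand).
Ctsa: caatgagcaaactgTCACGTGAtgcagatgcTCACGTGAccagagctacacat
Ctsd: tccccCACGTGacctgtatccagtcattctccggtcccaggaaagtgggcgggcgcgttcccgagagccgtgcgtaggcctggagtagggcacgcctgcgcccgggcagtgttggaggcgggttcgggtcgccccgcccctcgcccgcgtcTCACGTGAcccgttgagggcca
Lamp1: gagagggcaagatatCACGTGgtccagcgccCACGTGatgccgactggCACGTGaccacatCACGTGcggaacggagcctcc
Atg3: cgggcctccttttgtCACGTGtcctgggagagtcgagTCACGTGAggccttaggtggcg

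In Lamp1, 4 matches began 61, 45, 28 and 15 bases before the start. Ctsa has 2 RefSeq starts, and the window of the upstream start, next to which the GENCODE gene begins, held no match. At the downstream start, the CACGTG of the 2 flanked matches began 12 bases before and 5 bases after it. Atg7, Atg5, Ctsl and Atg14 held 1 match each. None of these 8 genes was called, where 16.7% of all genes tested were, so that their number is too small to read this count apart from the background. Their log2 fold changes ran from -0.15 for Lamp1 to 0.17 for Ctsa. The 3 windows of Tfeb and the window of Ulk2 did not hold CACGTG. A match in these letters is a description of the window and does not show binding.

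A part of the 40 genes followed the libraries more than the ages. In 11 of the 40, the 2 lowest values were those of aged replicate 1 and young replicate 2, the libraries lowest in the summed level of 7 erythroid transcripts (13223 and 12624 CPM). This order was seen in 6.2% of all genes tested. The 11 genes were Ulk1, Rb1cc1, Becn1, Atg9a, Wipi2, Atg4a, Atg12, Map1lc3b, Gabarapl2, Optn and Ctsb. In 7 of them (Ulk1, Becn1, Atg4a, Map1lc3b, Gabarapl2, Optn and Ctsb), aged replicate 2, the library highest in erythroid transcripts (160997 CPM), also had the highest value, against 3.93% of all genes. The pattern was noticed after the values were seen, and it is given as a description. The part of erythroid cells in it was not tested.

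**Figure D4:**
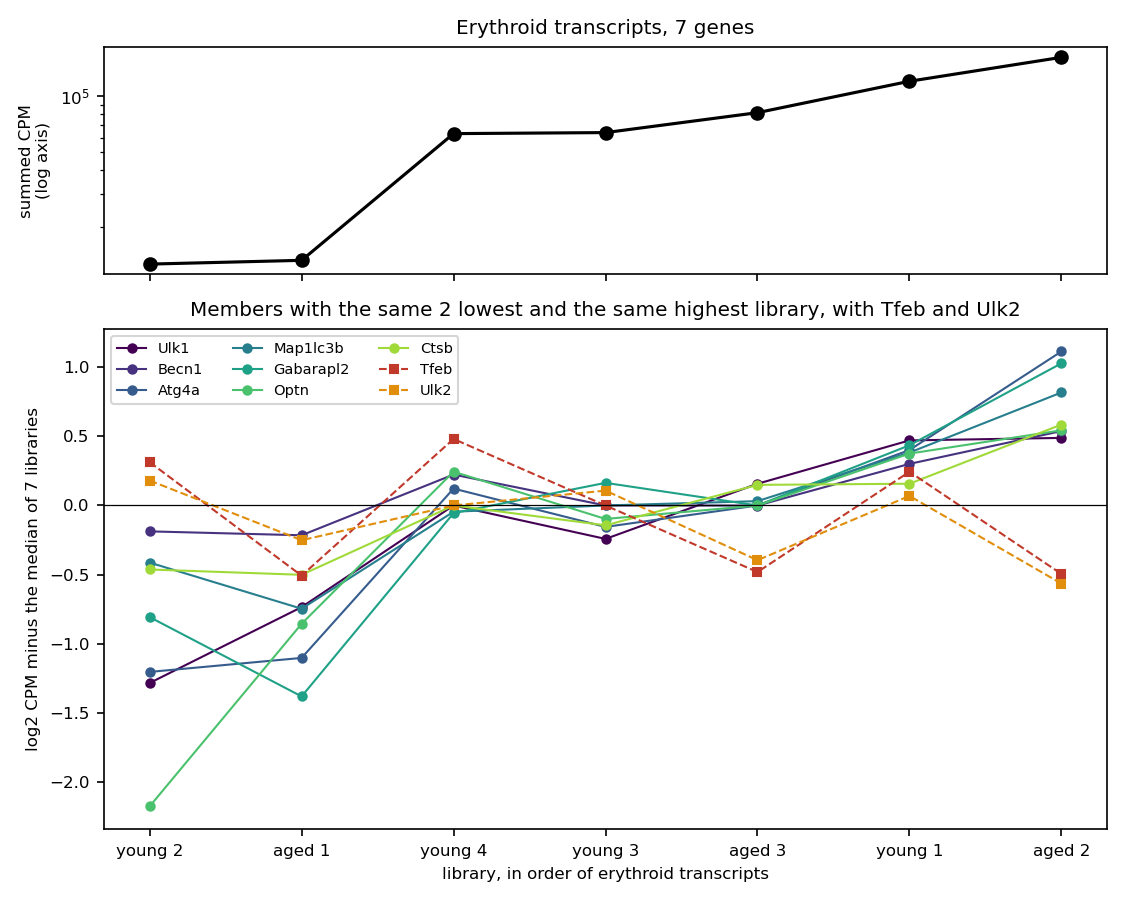
Summed level of 7 erythroid genes (top, CPM on a log axis) and log2 CPM of each gene minus its median over the 7 libraries (bottom), with libraries ordered by erythroid level from left to right. The 7 genes drawn with circles were chosen for having the same 2 lowest libraries and the same highest library. Tfeb and Ulk2 (dashed) are split by age instead, with all aged libraries below all young ones.

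The log2 fold changes of these genes changed with the libraries kept. With aged replicate 1 and young replicate 2 left out, which leaves 2 aged and 3 young libraries, Atg4a was at 0.52, Gabarapl2 at 0.4, Ctsb at 0.37, Map1lc3b at 0.35 and Ulk1 at 0.22, none of them called. With aged replicate 2 left out instead, they were at -0.35, -0.53, -0.05, -0.31 and -0.09 in the same order, again with none called. Tfeb was at -0.75 and Ulk2 at -0.54 with aged replicate 1 and young replicate 2 left out, with adjusted p-values of 0.0162 and 0.0123. Of the 123 tested genes of the wider pathway lists below, 18 had the same 2 lowest libraries, against 6.2% of all genes tested. In 10 of these 18 the highest library was also the same, against 3.93% of all genes tested. The 10 were the cargo receptors Tax1bp1, Calcoco1, Bnip3l and Ncoa4, the V-ATPase subunits Atp6v0a1, Atp6v0b, Atp6v1b2 and Atp6v1e1, and Ctsf and Pla2g15, a lysosomal protease and a lysosomal phospholipase. Bnip3l was at 146.1, 1144 and 578.4 CPM in aged and at 742.8, 180.8, 491.3 and 491.8 CPM in young libraries, and its log2 fold change of 0.39 was not called.

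The wider pathway was described with 127 further genes in 6 lists. Of these, 125 were found and 123 tested, with 13 called higher and 10 lower in aged Tregs. Together, 18.7% of the 123 were called, near the 16.7% of all genes tested that were called in either direction, and their median log2 fold change was -0.01. Among 25 other autophagy genes, 6 were called higher and 2 lower. Among 38 other lysosomal hydrolases and cofactors, 2 were higher and 5 lower, and among 15 other lysosomal membrane proteins, 2 were higher and 1 lower. Of 17 regulators of lysosomal genes and of mTORC1 at the lysosome, 2 were higher and 1 lower, of 17 V-ATPase subunits 1 was higher, and of 11 other cargo receptors 1 was lower.

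The 5 largest rises and 4 of the 5 largest falls among the called pathway genes are given here. Atp6v0d2, an isoform of the V-ATPase d subunit known from osteoclasts and macrophages, was at 17.4 ± 4.59 CPM in aged (SD, n = 3) and 3.32 ± 1.88 CPM in young Tregs (SD, n = 4), a log2 fold change of 2.38 with an edgeR adjusted p-value of 0.00511. Cd63, a tetraspanin of late endosomes and lysosomes, was at 15.2 ± 1.97 against 5.19 ± 2.03 CPM, with 1.54 and 0.0106. Vmp1, which acts at the endoplasmic reticulum in autophagosome formation, rose by 0.69, Wdr45 (WIPI4), a paralogue of the WIPI genes above, by 0.63, and Lamtor4, a subunit of the Ragulator complex that anchors mTORC1, by 0.61. Among these rises and falls, Lamtor4 was the only one whose ages overlapped.

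On the lower side, Wdfy3, which codes for the aggregate receptor ALFY, had a log2 fold change of -1.03 and an edgeR adjusted p-value of 0.0272. Tecpr1, which links autophagosomes to lysosomes, was at -0.66, the beta-galactosidase Glb1 at -0.61 and the lysosomal cholesterol transporter Npc1 at -0.6.

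**Figure D5:**
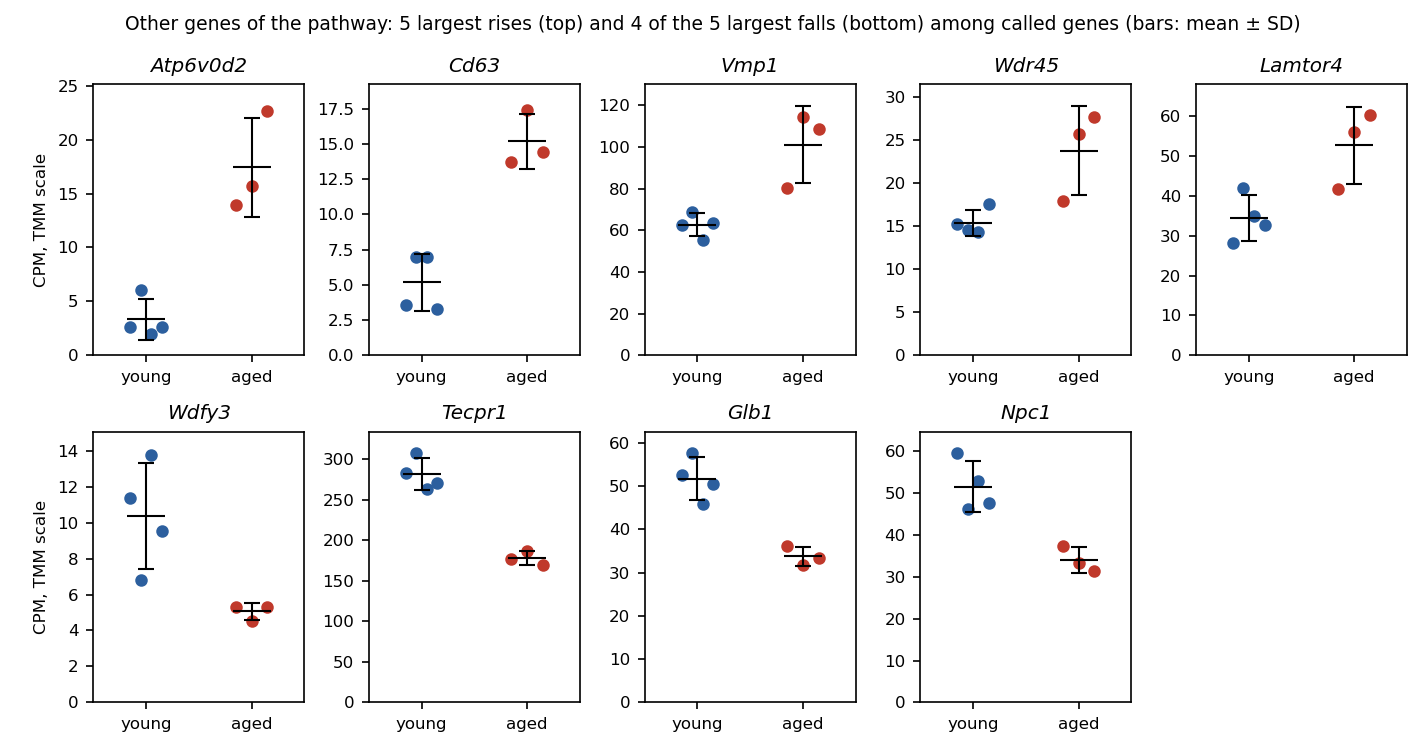
CPM (vertical axes, from 0) in each young (blue, n = 4) and aged (red, n = 3) library for called pathway genes outside the list of 40, with the 5 largest rises (top) and 4 of the 5 largest falls (bottom), with mean and SD as bars. Apart from Lamtor4, no aged library overlaps a young one.

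Some markers of other cells also differed between the ages. Of 12 monocyte or macrophage markers tested, Csf1r, Adgre1 and Vcam1 were called lower and Cd14 higher, while the summed level of all 13 on the list was 524.0 to 719.6 CPM in aged and 596.5 to 689.5 CPM in young libraries. The summed level of 8 dendritic cell markers was 45.4 to 66.7 CPM in aged and 63.1 to 82.7 CPM in young libraries, with 3 called lower and 1 higher. The sum of 8 B cell markers was 889.7 to 1671 CPM against 1359 to 2119 CPM, with 0 called by edgeR (0 higher and 4 lower at an unadjusted p-value under 0.05). Of 7 plasma cell markers, all with positive log2 fold changes, Prdm1 was called higher, and the sum was 760.3 to 1314 CPM against 329.2 to 2013 CPM. Of 7 NK cell markers, Klrb1c was called lower, with a sum of 32.0 to 49.2 CPM against 43.5 to 73.6 CPM. Of 5 platelet markers tested, Ppbp was called higher and Itgb3 lower, with a sum over all 6 on the list of 54.7 to 67.7 CPM against 62.6 to 78.2 CPM, and neither of the 2 CD8 T cell markers was called. Vsig4 was at 0 in 4 of 7 libraries and under 3 counts in all 7, and Cd209a was at 0 in 1 library. Every other marker of these lists had reads in all libraries. The part of these cells in the lower levels of Tfeb, Ulk2 and the pathway genes above was not tested.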

How the data were processed

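RNA-sequencing libraries of splenic CD4+CD25+ cells (3 aged, 4 young) were analysed. The authors deposited raw read counts per Ensembl gene, in the layout of HTSeq-count in union mode without strand. Reads on no gene or on several (13.1% to 20.9%) were left out. The authors also deposited a table of signal values, checked to be the counts divided by 1 size factor per library, which gave the gene names. Its fold changes and p-values, named as in DESeq2, were not used. The submitters' processing notes name mm10, and the aligner is not given in the sources used here. Coordinates and exon lengths are from GENCODE M21 (GRCm38), with the exons of all transcripts of a gene merged, whether or not a transcript is expressed here. Without molecular identifiers, limits of detection cover counting error only.

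The ages were tested by edgeR 4.0.16 under R 4.3.3 with the quasi-likelihood test, TMM, filterByExpr by group, no covariate and Benjamini-Hochberg adjustment over 13904 genes. CPM are on the TMM scale, also per kb of exon, apart from the range for the limit of detection given before TMM scaling. Each standard error is the size of the log2 fold change divided by the square root of F. The alternatives were DESeq2 1.42.0, limma 3.58.1 (voom, since the methods of the study name limma), RLE or library size normalization, no filter, a minimum of 10 counts per library, removal of mitochondrial, immunoglobulin and haemoglobin genes, thinning to the smallest total, GC content and length trends removed, a replicate block, leaving out each library, and a minimum log2 fold change of 1. Leaving out both libraries lowest in erythroid transcripts was chosen after seeing the data. On simulated counts of 13639 genes for this comparison, edgeR recovered 22 of 96 genes changed by a log2 of 0.75 and 76 of 99 changed by 1.5, with 8 false calls.

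The 40 genes and the pathway and marker lists were chosen with earlier results of these data known. All 40 are named, with the 5 largest rises and 5 largest falls among called pathway genes whose mean log2 CPM was at least 1, of which 1 fall is not reported here, and marker genes beside results. Bnip3l, the genes named for the order of the libraries and the promoters shown were chosen after their values were seen.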

Additional observations from a re-analysis of the deposited data

Results flagged for a closer look

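In 4 of the 40 genes, the value of a single young library lay far from the other 3, by Dixon's criterion for a gap at the 95% level, which chance alone meets in about 1 of 20 groups. Wipi1 was at 3.15 CPM in young replicate 2, with the others at 8.56 to 9.56 CPM. Atg12 was at 59.6 CPM in young replicate 1, with the others at 50.2 to 51.6 CPM. Gabarapl1 was at 20.5 CPM in young replicate 2, with the others at 17.3 to 17.4 CPM. Lamp1 was at 263.0 CPM in young replicate 2, with the others at 217.4 to 220.5 CPM. In 3 of the 4 the library was young replicate 2, which was also the lowest in erythroid transcripts. The groups of 3 aged libraries were too small for this criterion.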

How the results depend on the processing

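Ulk2 and Tfeb were called lower under DESeq2, limma voom, other normalizations and filters, thinning, removal of GC content and length trends, and with each library left out (2 lower and 0 higher in each of these 7 fits, against 3.16% to 10.2% and 5.71% to 11.3% of all genes). With the replicate number as a block, 0 genes were called higher and 0 lower (Tfeb at -0.68, adjusted p = 0.0701; Ulk2 at -0.52, adjusted p = 0.104). The numbers gave no sign of pairing, as deviations of same-numbered libraries correlated at -0.09, -0.29 and -0.14 and no library correlated best with its own number, and over all genes the block left 202 higher and 90 lower calls, against 1362 and 965. When a log2 fold change of 1 or more in either direction was required, 0 were called lower, by construction. The count of genes called higher was 1 under DESeq2 (Atg4b, 0.24), 1 with at least 10 counts in every library (Atg4b, 0.26; 9.43% of all genes), 1 with thinning (Atg4b, 0.27; 9.6%), 2 with GC content and length trends removed (Atg4b, 0.37, and Lamp2, 0.25) and 1 with both libraries lowest in erythroid transcripts left out (Gabarap, 0.34; 12.6%). The cause of these changes was not tested. The median over all genes was 0.02, and -0.05 with library size only. The recovery on simulated counts cannot be carried over to a change of the size of that of Tfeb in these data. Only 96 and 99 genes were changed there, against 1362 and 965 called here, which made the adjusted threshold harder to pass in the simulation. A gene that was not called may still differ between the ages.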
